A study of Homo sapiens with 6 samples.

Results

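Immune checkpoint ligands are surface or secreted proteins through which a tumour cell restrains T cells, NK cells or phagocytes. Their mRNAs were compared between 786-O cells edited with CRISPR/Cas9 at PLOD2 (sgPLOD2, 3 libraries) and 786-O cells given a control guide (sgControl, 3 libraries). The 10 genes were taken by symbol from a deposited table of 58395 genes: CD274, PDCD1LG2, CD276, VTCN1, CD47, NT5E, PVR, NECTIN2, LGALS9 and TNFRSF14. Each symbol matched 1 row. 786-O is an established human kidney cancer line of the clear cell type without functional VHL, a background common to all 6 libraries. PLOD2 encodes lysyl hydroxylase 2, a collagen-modifying enzyme. The series is placed by its title in the search for differentiation-inducing treatment of sarcomatoid renal carcinoma. The labels state neither whether the edited cells were a clone or a pool, nor whether the replicates came from different cultures. The p-values therefore reflect the scatter of these libraries alone, and that scatter may be technical.

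CD274 (PD-L1) and PDCD1LG2 (PD-L2) bind PD-1 on T cells and dampen T cell receptor signalling, and interferon gamma is the best known inducer of CD274 through JAK kinases and IRF1. CD276 (B7-H3) and VTCN1 (B7-H4) are further B7 family members. PVR (CD155) and NECTIN2 (CD112) engage the inhibitory receptor TIGIT and the activating receptor CD226. CD47 signals to SIRPA on phagocytes and is known as a signal against engulfment. NT5E (CD73) converts extracellular AMP to adenosine, LGALS9 encodes galectin-9, and TNFRSF14 (HVEM) binds BTLA. PD-1 and PD-L1 antibodies are used to treat renal carcinoma.

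The FPKM values (fragments scaled by gene length and by mapped depth) summed to between 229485 and 238801 in sgPLOD2 and between 243422 and 268612 in sgControl. The authors' mean normalized counts summed to 111599608 per library, and their size factors, read from genes detected in a single library, ran from 0.927 to 1.09. PLOD2 mRNA had 5.98, 10.1 and 6.64 FPKM in sgPLOD2, against 26.8, 25.7 and 21.5 FPKM in sgControl, so 30.7% of the control level remained (log2 fold change -1.61 ± 0.18 SE, limma adjusted p = 0.000509). The mitochondrial share of the FPKM ran from 6.01% to 7.50%, except for 12.9% in sgControl replicate 1, and the calls for CD274, PDCD1LG2, NT5E, NECTIN2 and CD276 held without that library. Of 12 renal and carcinoma markers, 10 reached 1 FPKM, with a summed level of 290 to 347 FPKM in sgPLOD2 and 309 to 333 FPKM in sgControl. Most of that sum came from KRT8, KRT18 and KRT19, which were not called, while other markers of the list differed in both directions, and these were named after their values were seen. LHX1, VCAM1 and CDH6 were called higher, with changes of 1.51, 1.14 and 0.61 on the log2 scale, and CA12 was called lower (-1.63; limma adjusted p = 4.80e-05). PAX2 was also called lower (-0.33, limma adjusted p = 0.0191), but not under TPM or without sgPLOD2 replicate 1 or 2 or sgControl replicate 3 (0.0533 to 0.0670). Of 15 leukocyte markers only CD68, a lysosomal protein that is not restricted to leukocytes, reached 1 FPKM, and CD3E, CD2, MS4A1 and HLA-DRA were listed at 0 in every library. The summed leukocyte markers had 5.64 to 6.65 FPKM in sgPLOD2 and 11.6 to 18.4 FPKM in sgControl. Most of that sum was CD68, at 5.86 ± 0.56 FPKM in sgPLOD2 and 15.8 ± 3.84 FPKM in sgControl (SD, n = 3 each). None of 8 endothelial markers and only COL1A1 of 10 fibroblast and pericyte markers reached 1 FPKM, and the fibroblast list summed to 3.55 to 3.96 FPKM in sgPLOD2 and 0.897 to 1.36 FPKM in sgControl. The part of these marker differences in the results was not tested. Over all tested genes 55.7% of calls were higher in sgPLOD2, against 66.8% after rescaling to equal totals (TPM) and 45.2% at a minimum of 5 FPKM.

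The ligands did not move together. CD274, PDCD1LG2 and NT5E rose in sgPLOD2, NECTIN2 and CD276 fell, CD47 and PVR were not called, and TNFRSF14, LGALS9 and VTCN1 were too low for the test. Among the tested ligands the largest change was in CD274, at 2.89 times the control mean. Of the 10 genes, 7 had a mean of at least 1 FPKM over the 6 libraries and entered a limma fit over 10469 genes, in which a call is a Benjamini-Hochberg adjusted p under 0.05. Of these 7, 3 were called higher and 2 lower, whereas 29.5% of all tested genes were called higher and 23.5% lower. A count of 5 among 7 stands against 52.9% called in either direction over all genes, so being called is not particular to these ligands. Of the same 7, 5 also had groups that did not overlap, 3 above and 2 below, beside 62.7% of all tested genes, 34.7% above and 28.0% below. In bulk RNA, fewer cells that make a transcript and less of it per cell cannot be told apart. Their median log2 fold change was -0.0050, beside 0.06 over all tested genes. Changes are sgPLOD2 minus sgControl on log2(FPKM + 1), which understates changes of low genes.

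**Figure D1:**
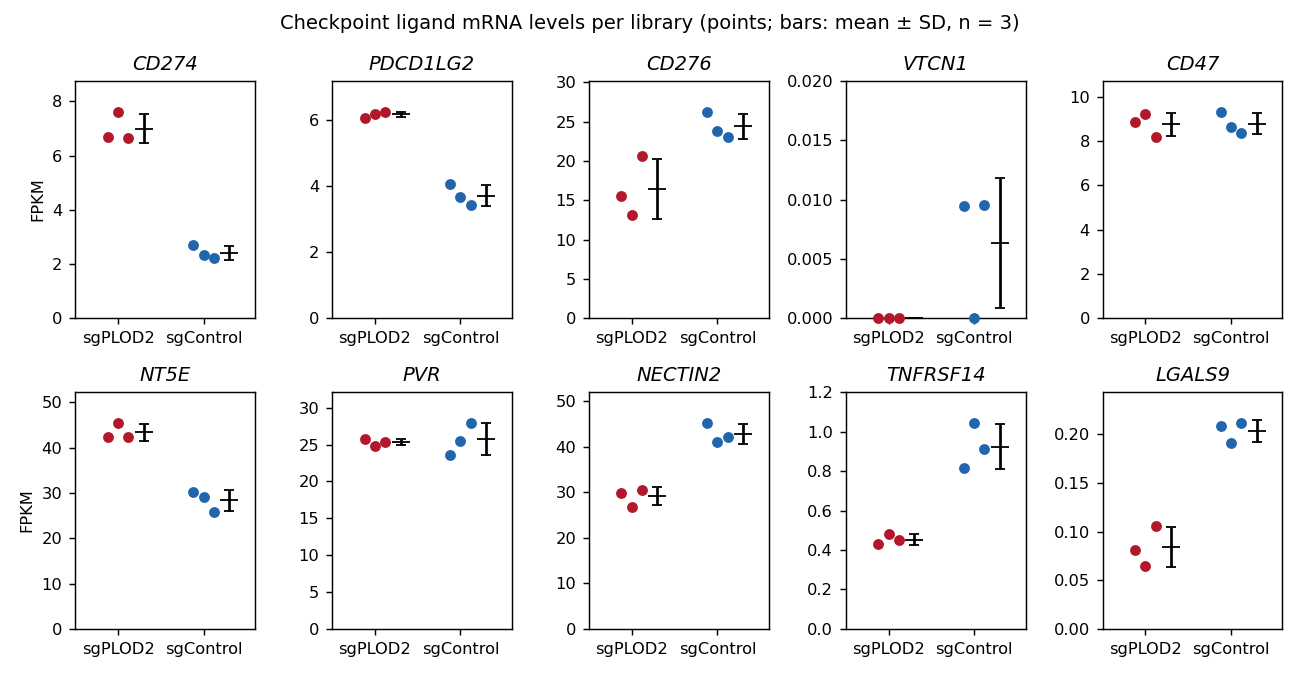
FPKM of each checkpoint ligand in every library (points, sgPLOD2 left and sgControl right; bars give the mean ± SD, n = 3), with a separate axis from 0 for each gene. All CD274, PDCD1LG2 and NT5E values of sgPLOD2 lie above those of sgControl, all CD276, NECTIN2, TNFRSF14 and LGALS9 values lie below, and CD47 and PVR overlap.

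The sequence before the start of CD274 is shown because it carries interferon-type motifs, and that before NECTIN2 because this gene was called in the other direction and carries neither motif. Both are from RefSeq (GRCh38.p14, plus strand, 5′ to 3′) and stop before the earliest start that GENCODE 29 gives for the gene, at chr9:5450292-5450502 and chr19:44846047-44846174. Capitals mark matches on either strand to an interferon-stimulated response-like motif, in which GAAA is followed after any 2 bases by GAAA again, and to TTCNNNGAA, a gamma-activated motif. In CD274 the first run of capitals holds 2 overlapping matches to the paired GAAA pattern and the second run is the match to TTCNNNGAA.
CD274: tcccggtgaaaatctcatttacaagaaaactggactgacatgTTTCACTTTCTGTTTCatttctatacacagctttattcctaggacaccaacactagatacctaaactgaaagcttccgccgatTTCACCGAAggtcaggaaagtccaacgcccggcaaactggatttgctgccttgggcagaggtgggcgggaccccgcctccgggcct
NECTIN2: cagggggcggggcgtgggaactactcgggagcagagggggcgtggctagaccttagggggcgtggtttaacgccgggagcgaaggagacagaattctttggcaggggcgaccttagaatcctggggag

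The RefSeq promoter table held 10 entries for 9 of the 10 ligands. In the 250 bases before each start, the paired GAAA motif occurred in 3.02% of all 35116 promoters and TTCNNNGAA in 6.57%, and among the ligand entries each occurred only in CD274. NT5E, which was also called higher, carried neither motif, and PDCD1LG2 had no entry. ACGTG, the core of the hypoxia response element, was found in 18.5% of all promoters and in 2 of the 10 ligand entries, for CD47 and for 1 of 2 starts of CD276. The loose NF-kB-like pattern of GGG and CC with any 5 bases between them was found in 54.4% of all promoters and 9 of the 10 entries. Its fixed letters are all G or C. The share of G and C ran from 51.6% (LGALS9) to 80.8% (a start of CD276) in the entries, beside a median of 58% over all promoters. The part of base composition in this count was not tested. These matches describe letters only and do not show binding.

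CD274 (ENSG00000120217, protein-coding, chromosome 9, 5450503 to 5470566, plus strand, GRCh38) had 6.70, 7.61 and 6.66 FPKM in sgPLOD2, against 2.72, 2.32 and 2.23 FPKM in sgControl. Every sgPLOD2 library was above every sgControl library, and the gap between the groups was wider than the spread within either. The means were 6.99 ± 0.54 FPKM in sgPLOD2 and 2.42 ± 0.26 FPKM in sgControl (SD, n = 3 each), with a log2 fold change of 1.22 ± 0.10 (SE) and a limma adjusted p of 0.000117. Only 5.03% of tested genes were called higher with a change of at least 1 on this scale. The authors' deposited table gave CD274 a mean normalized count of 2593, a log2 fold change of 1.43 ± 0.15 (SE) and an adjusted p of 1.14e-19.

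PDCD1LG2 (ENSG00000197646), the neighbouring gene on chromosome 9 (5510531 to 5571282, plus strand), had 6.07, 6.18 and 6.23 FPKM in sgPLOD2, against 4.05, 3.66 and 3.42 FPKM in sgControl. The groups did not overlap, and the rise was smaller than that of CD274. Its log2 fold change came to 0.61 ± 0.09 (SE; limma adjusted p = 0.00131). Within single libraries, the log2 ratio of CD274 to PDCD1LG2 was 0.12, 0.26 and 0.08 in sgPLOD2 and -0.44, -0.49 and -0.45 in sgControl. CD274 was thus the higher of the pair in all sgPLOD2 libraries and the lower in all sgControl libraries. The ratio differed by 0.62, with a 2-sided exact permutation p of 0.1, the smallest that 3 libraries against 3 allow.

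Genes around CD274 were also higher in sgPLOD2. Of the 20 nearest tested genes, 10 on each side, 17 were called higher and 0 lower, and their median log2 fold change was 0.57. Among these 20, 2 had a change at least as large as that of CD274. The flanking genes were PLGRKT, with a change of 0.48 (limma adjusted p = 0.0232), and PDCD1LG2 itself, beyond which RIC1 changed by 0.66 (limma adjusted p = 0.00269). In 74 tested genes from 15 to 40 Mb beyond CD274 the median was 0.40, whereas over the 335 genes more than 40 Mb away it was -0.29, with 41 called higher and 163 lower. These distance limits were set after the values were seen. With the median of its 20 nearest genes removed, an alternative chosen after seeing the data that called 43.1% of all tested genes, CD274 kept a change of 0.65 (95% confidence interval 0.42 to 0.88, limma adjusted p = 0.00217). PDCD1LG2 was not called on that measure, at 0.06 (-0.15 to 0.26, limma adjusted p = 0.626). Wherever a median was removed, the intervals and p-values keep the standard error of the fit. They leave out the uncertainty of the median and the spread among the neighbouring genes. What made genes on this stretch higher was not tested, and the design cannot tell an effect of PLOD2 loss apart from a difference between the cell populations that carry the guides.

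**Figure D2:**
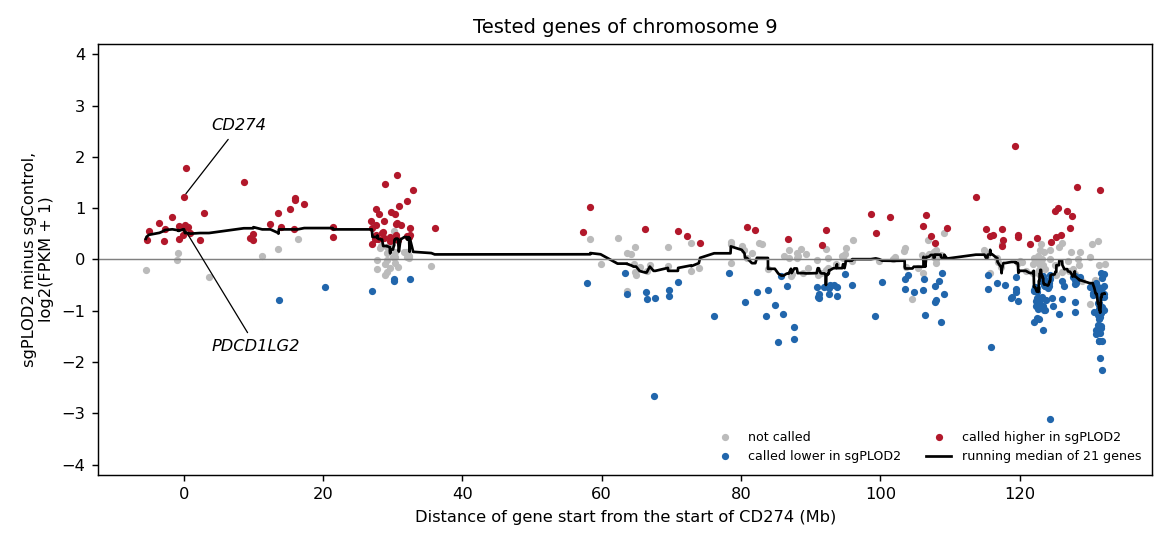
Log2 fold change (sgPLOD2 minus sgControl, log2(FPKM + 1)) of each tested gene of chromosome 9 against the distance of its start from that of CD274, in Mb; points are coloured by call and the line is the running median of 21 genes. The genes from 6 Mb before to 15 Mb after CD274 have a median of 0.51 and those beyond 40 Mb a median of -0.29.

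Of the other B7 family members, CD276 (ENSG00000103855, chromosome 15, 73683966 to 73714514, plus strand) had 15.6, 13.2 and 20.7 FPKM in sgPLOD2, against 26.2, 23.9 and 23.1 FPKM in sgControl. The sgPLOD2 libraries were all lower but scattered, with replicate 3 closest to the controls. Its log2 fold change came to -0.56 ± 0.16 (SE; limma adjusted p = 0.0203). This call was lost without sgPLOD2 replicate 1 (adjusted p = 0.0602) or replicate 2 (0.0581), under TPM (0.0524, with 52.5% of genes called) and with no filter on low genes (0.0572). The log2 ratio of CD276 to CD274 within libraries was 1.11, 0.72 and 1.499 in sgPLOD2 and 2.87, 2.90 and 2.90 in sgControl. The ratio was lower in every sgPLOD2 library (mean difference -1.78, 2-sided exact permutation p = 0.1, the smallest possible). VTCN1 (ENSG00000134258, chromosome 1) was listed at 0 in all sgPLOD2 libraries and at 0.00946, 0 and 0.00955 FPKM in sgControl, and the authors' deposited table gave it a mean normalized count of 1.55. No difference in VTCN1 could be detected at this depth.

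The ligands of TIGIT and CD226 went apart. NECTIN2 (ENSG00000130202, chromosome 19, 44846175 to 44889223, plus strand) had 29.8, 26.8 and 30.5 FPKM in sgPLOD2, against 45.2, 41.1 and 42.0 FPKM in sgControl. The groups were clearly separate, with a log2 fold change of -0.54 ± 0.09 (SE) and a limma adjusted p of 0.00196. PVR (ENSG00000073008, chromosome 19, 44643798 to 44666162, plus strand) had 25.7, 24.8 and 25.4 FPKM in sgPLOD2, against 23.6, 25.5 and 28.0 FPKM in sgControl. The sgPLOD2 values of PVR lay inside the control range, and the 95% confidence interval of its change ran from -0.22 to 0.19 (limma adjusted p = 0.873). The log2 ratio of PVR to NECTIN2 was -0.21, -0.11 and -0.26 in sgPLOD2 and -0.91, -0.66 and -0.57 in sgControl, a difference of 0.52 with every sgPLOD2 library above every control (2-sided exact permutation p = 0.1, the smallest possible). The genes lie close together, and the 20 nearest tested genes of NECTIN2 had a median of -0.18, with 2 called higher and 8 lower. The annotation places CEACAM19 and the antisense gene AC243964.2 across part of PVR, but their highest values were 0.367 and 0.119 FPKM. AC011481.2, antisense to NECTIN2, was listed at 0.

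CD47 (ENSG00000196776, chromosome 3, 108043091 to 108091862, minus strand) had 8.85, 9.22 and 8.19 FPKM in sgPLOD2, against 9.31, 8.66 and 8.38 FPKM in sgControl. The values overlapped throughout, and the 95% confidence interval of the change was -0.21 to 0.20 (limma adjusted p = 0.967). Some surrounding genes did differ: the 20 nearest, spread over 11.5 Mb, had a median of 0.41, with 9 called higher and 1 lower. Of the flanking genes, BBX changed by 0.76 (limma adjusted p = 0.0376) and IFT57 was not called (-0.10, limma adjusted p = 0.338). The median over chromosome 3 was 0.33. With chromosome medians removed, which called 47.2% of all tested genes, CD47 had a change of -0.34 (limma adjusted p = 0.0164), and with the median of its 20 nearest genes removed -0.41 (limma adjusted p = 0.00850). The authors' deposited table gave a log2 fold change of -0.10 ± 0.13 (SE) and an adjusted p of 0.606.

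NT5E (ENSG00000135318, chromosome 6, 85449584 to 85495791, plus strand) was the most abundant of the ligands in sgPLOD2, with 42.2, 45.5 and 42.3 FPKM, against 30.3, 29.1 and 25.7 FPKM in sgControl. All sgPLOD2 libraries were higher, with means of 43.3 ± 1.88 FPKM in sgPLOD2 and 28.4 ± 2.37 FPKM in sgControl (SD, n = 3 each). Its log2 fold change came to 0.60 ± 0.09 (SE; limma adjusted p = 0.00159). Genes of chromosome 6 were higher as a whole, with a median of 0.35. With chromosome medians removed, NT5E had a change of 0.25 and was not called (limma adjusted p = 0.0541), and with the median of its 20 nearest genes removed it had 0.27 (limma adjusted p = 0.0433).

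TNFRSF14 (ENSG00000157873, chromosome 1, 2555639 to 2565382, plus strand) had 0.428, 0.482 and 0.449 FPKM in sgPLOD2, against 0.819, 1.05 and 0.911 FPKM in sgControl. The groups did not overlap, and the sgPLOD2 mean was 49.0% of the control mean. LGALS9 (ENSG00000168961, chromosome 17, 27629798 to 27649560, plus strand) had 0.0815, 0.0645 and 0.105 FPKM in sgPLOD2, against 0.208, 0.191 and 0.212 FPKM in sgControl, also without overlap. Of the 5809 genes with a mean between 0.1 and 1 FPKM, 47.3% had groups that did not overlap. TNFRSF14 and LGALS9 each had a 2-sided exact permutation p of 0.1, the smallest possible. A fit with no filter on low genes, which called 24.3% of 28706 genes and 10.1% lower, called both lower (limma adjusted p of 0.0134 for TNFRSF14 and 0.00634 for LGALS9). The authors' deposited table, in which 35.5% of 22870 genes had an adjusted p under 0.05, gave log2 fold changes of -1.12 ± 0.19 (SE, adjusted p = 5.03e-08) for TNFRSF14 and -1.32 ± 0.33 (SE, adjusted p = 0.000370) for LGALS9. LGALS9 has close paralogs whose reads can be shared with it, LGALS9B, listed at 0, and LGALS9C, at no more than 0.0120 FPKM. TNFRSF14-AS1, antisense to TNFRSF14, reached no more than 0.0222 FPKM.

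**Figure D3:**
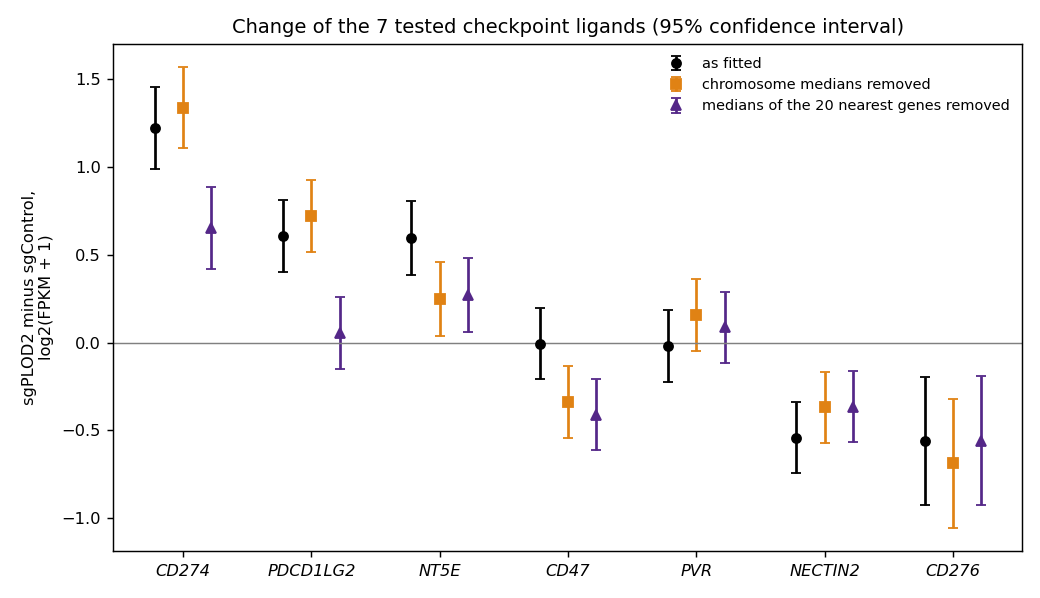
Change of the 7 tested ligands (sgPLOD2 minus sgControl, log2(FPKM + 1); bars are 95% confidence intervals) as fitted, with the median of each gene's chromosome removed, and with the median of its 20 nearest tested genes removed. The intervals leave out the uncertainty of the removed medians. CD274 stays above 0 and NECTIN2 and CD276 stay below 0 on all 3 measures, PDCD1LG2 reaches 0.06 on the last, and CD47 moves below 0.

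The order of the mRNA levels, per kilobase, differed between the groups at the top and in the middle. In sgPLOD2 it was NT5E, NECTIN2, PVR, CD276, CD47, CD274, PDCD1LG2, TNFRSF14, LGALS9 and VTCN1, with no overlap between neighbours. In sgControl NECTIN2 came first, at 42.8 FPKM on average, followed by NT5E, PVR and CD276, whose neighbouring ranges overlapped, then CD47, PDCD1LG2, CD274 and the same 3 weakly expressed genes. The summed level of the 10 ligands was 135, 134 and 141 FPKM in sgPLOD2 and 143, 135 and 134 FPKM in sgControl. CD274 made up 4.74% to 5.68% of that sum in sgPLOD2 and 1.67% to 1.91% in sgControl. NECTIN2 made up 20.04% to 22.02% in sgPLOD2 and 30.3% to 31.7% in sgControl.

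Patterns like these were common in the table. Over the 6 libraries, 2141 tested genes correlated with CD274 at Pearson r over 0.9 on the log2 scale, and 2106 with NT5E. The closest to CD274 were TSPAN2, DLGAP5 and SSH2 (r from 0.999 to 1.00), and the closest to NT5E were XPO7, SLC25A51 and SLC7A6 (r = 0.999 each). CD274 and NT5E differed between the groups without overlap, so a shared group difference raises these correlations. They do not show variation together within a group. For CD47 28 genes passed 0.9, led by ORC5, EMP2 and ENY2 (r of 0.983, 0.979 and 0.966).

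Factors known to drive CD274 transcription moved in opposite directions. Of 24, 23 were tested, with a median of 0.20. Among these, 10 were called higher and 5 lower, beside 29.5% and 23.5% of all tested genes. On the interferon side, STAT2, a factor of type I interferon signalling, had 1.99, 2.498 and 2.48 FPKM in sgPLOD2, against 4.67, 6.87 and 5.58 FPKM in sgControl. All sgPLOD2 values of STAT2 were lower (log2 fold change -1.004, limma adjusted p = 0.00114). IRF1 had 8.53 ± 0.38 FPKM in sgPLOD2 and 10.3 ± 0.40 FPKM in sgControl (SD, n = 3 each; limma adjusted p = 0.0368, or 0.309 under TPM, and from 0.0601 to 0.126 when an sgPLOD2 library or sgControl replicate 2 or 3 was left out). IRF9, a DNA-binding partner of STAT2, had 1.86, 0.709 and 1.08 FPKM in sgPLOD2 and 2.54, 2.85 and 9.75 FPKM in sgControl (limma adjusted p = 0.0383, or 0.0524 with robust estimation, 0.112 with no filter and 0.117 and 0.103 without sgPLOD2 replicates 2 and 3). JAK2, the kinase of the interferon gamma receptor and a gene of the same stretch of chromosome 9, was too low for the test, at 0.688, 0.934 and 0.830 FPKM in sgPLOD2 and 0.400, 0.348 and 0.337 FPKM in sgControl. Upstream of these factors the list went both ways, and the next 3 genes were named after their values were seen. The receptor subunit gene IFNAR1 and the kinase gene JAK1 were called higher, with changes of 0.71 and 0.57 (limma adjusted p of 0.0114 and 0.00312), although JAK1 was not called with nearest-gene medians removed (0.193). IFNGR2, a subunit of the interferon gamma receptor, was called lower (-0.67, limma adjusted p = 0.00281).

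On the hypoxia and growth factor side HIF1A, EPAS1 and EGFR rose. 786-O is known as a line without functional HIF-1α. HIF1A had 39.1, 38.4 and 35.6 FPKM in sgPLOD2, against 0.311, 0.539 and 0.409 FPKM in sgControl, a rise of 4.77 on the log2 scale (limma adjusted p = 9.93e-07). The design cannot tell an effect of PLOD2 loss on HIF1A apart from a difference between the cell populations that carry the guides. EPAS1, which encodes HIF-2α, had 22.9, 25.0 and 25.8 FPKM in sgPLOD2 and 11.2, 13.3 and 11.3 FPKM in sgControl (log2 fold change 0.98, limma adjusted p = 0.000282). The receptor gene EGFR rose to 16.7 ± 2.43 FPKM in sgPLOD2, against 5.92 ± 2.24 FPKM in sgControl (SD, n = 3 each; limma adjusted p = 0.00210). MYC was not called (limma adjusted p = 0.283) and varied within both groups, with 12.5, 1.01 and 24.4 FPKM in sgPLOD2 and 9.98, 0.776 and 0.742 FPKM in sgControl.

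Of 23 genes for the stability, glycosylation, palmitoylation or shedding of PD-L1 protein, 22 were tested, with a median of 0.15. Among these, 9 were called higher and 5 lower, beside 29.5% and 23.5% of all tested genes. The largest rises were in the kinase gene GSK3B (0.86), the oligosaccharyltransferase subunit STT3B (0.80) and the sheddase gene ADAM10 (0.79). The largest falls were in CDK4 (-0.84), HIP1R (-0.70) and the ubiquitin ligase gene STUB1 (-0.69). STT3B and STUB1 were not called with the median of the 20 nearest genes removed (limma adjusted p = 0.464 and 0.600). CMTM6, which protects PD-L1 from lysosomal breakdown, had 14.4, 17.4 and 13.6 FPKM in sgPLOD2 and 10.4, 10.7 and 9.27 FPKM in sgControl (limma adjusted p = 0.00650). That call was lost with chromosome medians (0.178) or nearest-gene medians removed (0.523), on which last measure its sign turned. Its relative CMTM4 was not called (limma adjusted p = 0.489). No protein was measured.

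**Figure D4:**
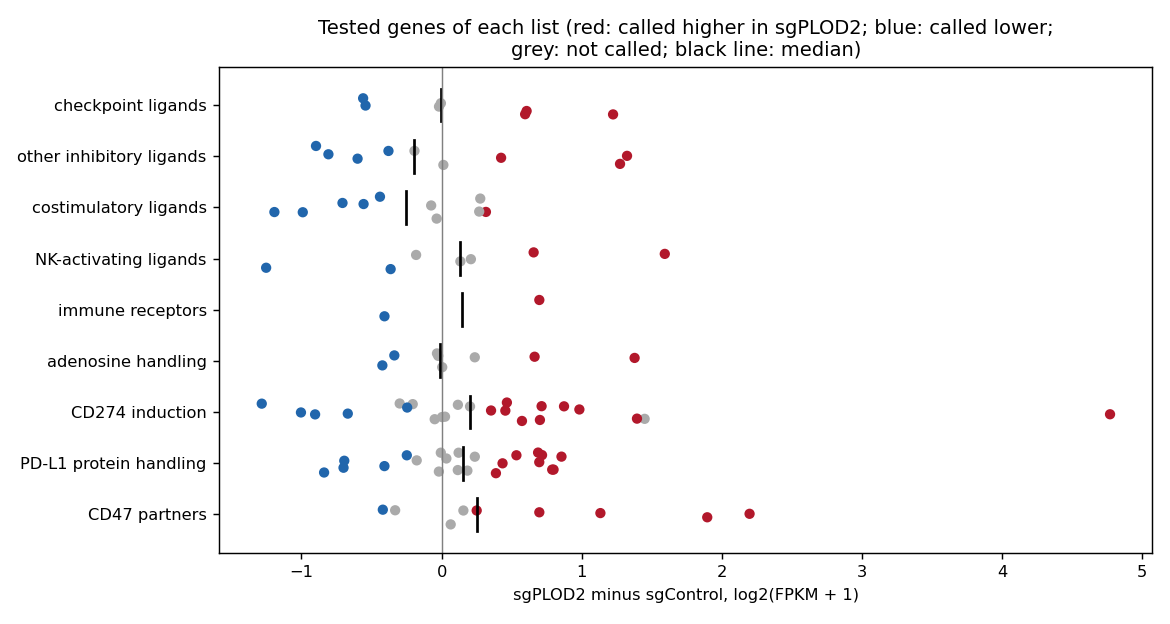
Log2 fold change (sgPLOD2 minus sgControl, log2(FPKM + 1)) of the tested genes in the checkpoint ligand list and the other 8 gene lists; each point is a gene, coloured by call, and the black line is the list median. Every list holds genes called in both directions, and HIF1A, at 4.77, is the point farthest right.

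For the CD47 axis, 9 of 13 partner genes were tested, with a median of 0.25. Among these, 5 were called higher and 1 lower, beside 29.5% and 23.5% of all tested genes. Thrombospondin 1 (THBS1), a secreted ligand of CD47, had 144, 182 and 169 FPKM in sgPLOD2 and 30.3, 56.1 and 47.9 FPKM in sgControl (log2 fold change 1.90, limma adjusted p = 0.000544). The integrin genes ITGB3 and ITGAV, whose products pair on the cell surface and bind CD47, rose by 2.20 and 1.13. SIRPA, the receptor for CD47, was expressed by the tumour cells themselves, at 59.4, 61.7 and 63.6 FPKM in sgPLOD2 and 36.2, 39.6 and 37.1 FPKM in sgControl (limma adjusted p = 0.000440). QPCTL, whose enzyme modifies CD47 for SIRPA binding, fell with a log2 fold change of -0.42 (limma adjusted p = 0.00727, or 0.0532 under TPM and 0.0601 with chromosome medians removed). Calreticulin (CALR), a signal for engulfment, was not called (adjusted p = 0.534), though it passed with changes of 0.20 under TPM (0.0472), 0.31 with quantile normalization (0.00848), 0.24 with chromosome medians removed (0.0479) and 0.35 with nearest-gene medians removed (0.0135).

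For adenosine handling around NT5E, 8 of 16 genes were tested, with a median of -0.0098. Among these, 2 were called higher and 2 lower, beside 29.5% and 23.5% of all tested genes. ENTPD1 (CD39), which makes the AMP that NT5E consumes, was low in both groups, at 0.213 ± 0.024 FPKM in sgPLOD2 and 0.232 ± 0.084 FPKM in sgControl (SD, n = 3 each). ENPP1, another source of AMP, rose to 4.61 ± 0.48 FPKM in sgPLOD2, against 1.16 ± 0.16 FPKM in sgControl (limma adjusted p = 8.63e-05). The nucleoside transporter gene SLC29A1 rose by 0.66. The enzymes that remove adenosine were lower, adenosine deaminase (ADA) at -0.42 and adenosine kinase (ADK) at -0.34. ADA was not called with nearest-gene medians removed (limma adjusted p = 0.311), and ADK (limma adjusted p = 0.0461) was not called under TPM, with no filter or without any 1 of 5 libraries, every one but sgControl replicate 1 (0.0737 to 0.217). The receptor gene ADORA2B was not called (adjusted p = 0.0736), except under TPM (0.0353).

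Other inhibitory ligands were called in both directions, 3 of 9 tested higher and 4 lower, beside 29.5% and 23.5% of all tested genes. Their median was -0.19, and 14 of the 23 listed were too low for the test. NECTIN1 and CD24, a ligand of Siglec-10, rose by 1.32 and 1.27, and NECTIN3, which binds TIGIT weakly and PVR in trans, by 0.42. CD24 was not called with nearest-gene medians removed (limma adjusted p = 0.0565), and NECTIN3 was not called with quantile normalization (0.0680), chromosome medians (0.540) or nearest-gene medians removed (0.840) or without sgPLOD2 replicate 2 or 3 or sgControl replicate 3 (0.0601 to 0.0664). The TAM receptor ligand GAS6, the death receptor ligand TNFSF10 (TRAIL) and HLA-E, which engages an inhibitory NK cell receptor, fell, with log2 fold changes of -0.90, -0.81 and -0.60. Galectin-1 (LGALS1) was very abundant, at 1457 ± 105 FPKM in sgPLOD2 and 1897 ± 169 FPKM in sgControl (SD, n = 3 each; limma adjusted p = 0.0212), but its call was lost in 6 alternatives (0.0746 to 0.406) and with nearest-gene medians removed (0.882), where its sign turned. Galectin-3 (LGALS3) had 22.3, 21.2 and 21.6 FPKM in sgPLOD2 and 20.8, 21.01 and 22.7 FPKM in sgControl and was not called as fitted. With chromosome medians removed LGALS3 had a change of -0.53 and was called lower (limma adjusted p = 0.00166). HHLA2 was listed at 0 in sgPLOD2 and averaged 0.0198 FPKM in sgControl.

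Of 18 costimulatory ligands and adhesion partners, 10 were tested, with a median of -0.26. Among these, 1 was called higher and 5 lower, beside 29.5% and 23.5% of all tested genes. CD40 had 11.1, 11.6 and 12.9 FPKM in sgPLOD2 and 31.1, 28.5 and 25.7 FPKM in sgControl (log2 fold change -1.19, limma adjusted p = 0.000153). CD70, which binds CD27 on T cells and is known to be abundant in clear cell renal carcinoma, had 182, 169 and 173 FPKM in sgPLOD2 and 297, 259 and 304 FPKM in sgControl (limma adjusted p = 0.000858). ICOSLG fell as well, with a log2 fold change of -0.99. The butyrophilin BTN2A1 rose by 0.32 (limma adjusted p = 0.0259), but was not called with chromosome or nearest-gene medians removed (0.821 and 0.760) or without sgPLOD2 replicate 1 or 2 or sgControl replicate 2 or 3 (0.0539 to 0.0952). CD80 and CD86, the ligands of CD28 and CTLA4, were listed at 0 in every library.

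Of 13 ligands of activating NK cell receptors, 7 were tested, with a median of 0.13. Among these, 2 were called higher and 2 lower, beside 29.5% and 23.5% of all tested genes. ULBP3 and MICB, ligands of NKG2D, rose by 1.59 and 0.66. ULBP2, of the same family, fell with a log2 fold change of -0.36 (limma adjusted p = 0.0176, or from 0.0501 to 0.0547 with an sgPLOD2 library left out), and CLEC2B fell with -1.25. A separate list held 23 immune receptors, among them PDCD1, CTLA4 and TIGIT. Of these receptors, 20 stayed under 1 FPKM in every library and only SIRPA and TNFRSF9 were tested. TNFRSF9 (4-1BB) had 11.96, 12.7 and 11.6 FPKM in sgPLOD2 and 15.04, 18.1 and 16.0 FPKM in sgControl (limma adjusted p = 0.00960, or 0.0759 under TPM).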

How the data were processed

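RNA sequencing of 6 libraries of 786-O cells was analysed from 1 deposited table. Per the file headers, it holds the authors' FPKM for each gene and library and their own comparison, made up of a mean normalized count (a signal with no stated scaling), a log2 fold change, its standard error, a score, a p-value and an adjusted p-value. Values from that comparison are named as the authors'. The submitters' processing notes list CASAVA, HISAT2 2.1.0, StringTie 1.3.4 and GRCh38 with no roles. No source used here gives the strand setting or counting tool, and reads of overlapping genes cannot be told apart. No scaling of FPKM between libraries is recorded. For genes seen in only 1 library, the authors' mean normalized counts were whole multiples of a step (100% of values within 0.01), which gave the size factors. Counts per library were not used, so intervals for counting error are left out.

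The fit used limma 3.58.1 (R 4.3.3), with linear fits moderated by eBayes along the intensity trend, on log2(FPKM + 1) for the 10469 genes averaging 1 FPKM or more. Its 2-sided p-values were adjusted by Benjamini-Hochberg and called under 0.05. Exact permutation tests used scipy 1.17.1. Positions came from GENCODE 29, which held 58275 of the 58395 identifiers. Tested on simulated data made for the same comparison, with 10469 genes, the fit recovered 37.3% of 67 genes changed by 0.5 on the log2 scale, 95.5% of 67 changed by 1 and 100% of 66 changed by 2, and 6.63% of calls were false. Only these genes were changed in the simulation, a far smaller share than the 52.9% called in the data. The Benjamini-Hochberg cutoff depends on that share, so these rates cannot be taken as those of the real comparison.

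The ligands, the gene lists and the tests were chosen with earlier results of these data known. Named from each other list were the 3 largest changes called in each direction, and 20 partners picked by name. Some genes of these lists are not reported here. The alternatives were other pseudocounts (0.1 and 0.5), filters and scalings, variance models, a replicate block, leaving out each library, and removal of chromosome medians. Removal of the median of the 20 nearest genes was added after seeing the data.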

Additional observations from a re-analysis of the deposited data

How the results depend on the processing

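Across the alternatives run, PLOD2, CD274 and NECTIN2 kept their direction and their side of the threshold wherever they were tested (CD274 has a mean below the 5 FPKM minimum). The 3 ligand ratios kept their sign, but their exact p-values could not pass the threshold in any setting. The number of ligands called higher was 3 as fitted and 1 at a minimum of 5 FPKM, where CD274 and PDCD1LG2 are no longer tested, and 2 with chromosome or nearest-gene medians removed. The number called lower was 2 as fitted, 1 under TPM, and 3 with no filter or with either kind of median removed. Leaving out each library in turn gave 3 to 3 ligands called higher and 1 to 2 called lower, and a log2 fold change of 1.17 to 1.28 for CD274. At a minimum of 5 FPKM, 1361 genes were called higher, since fewer genes were tested, against 3084 as fitted, and 1649 lower against 2456. The median change of all tested genes was 0.06 as fitted and 0.20 under TPM. Signs turned for CMTM6 (-0.094) and LGALS1 (0.023) with nearest-gene medians removed, for LGALS3 with chromosome (-0.53) and nearest-gene medians removed (-0.65), and for BTN2A1 with chromosome medians removed (-0.029). In each of these cases the removed median was larger in size than the change as fitted, which turns the sign. What set those medians was not tested. Same-numbered libraries did not deviate together (correlations of 0.01, 0.14 and -0.05). These values cannot show whether the replicates were handled in pairs, and the labels do not state it. With a replicate block 3 ligands were called higher and 2 lower, 2984 genes higher and 2335 lower, and IRF1 (adjusted p = 0.0624) and ADK (0.0849) were not called. Over 52 other named genes, 861 of 923 values under alternatives kept their direction and side of the threshold. Of the 3 lowest ligands only VTCN1 rests on few reads, with a mean normalized count of 1.55 in the authors' comparison. That count was 117 for LGALS9 and 594 for TNFRSF14. The changes of these 3 ligands on log2(FPKM + 1) grow with a smaller pseudocount.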

Other observations

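Some immune ligands and enzymes below the level needed for the test differed between the groups without overlap. They were picked after their values were seen, and no test result is given for them. VSIR (VISTA) had 1.08 ± 0.18 FPKM in sgPLOD2 and 0.193 ± 0.074 FPKM in sgControl (SD, n = 3 each). SIGLEC15, an inhibitory lectin, had 1.21 ± 0.10 FPKM in sgPLOD2 and 0.227 ± 0.037 FPKM in sgControl. NCR3LG1 (B7-H6), a ligand of the NK cell receptor NKp30, had 0.910 ± 0.24 FPKM in sgPLOD2 and 0.215 ± 0.17 FPKM in sgControl. The ectonucleotidase gene ENTPD2 had 0.0256 ± 0.0136 FPKM in sgPLOD2 and 0.547 ± 0.13 FPKM in sgControl. Groups did not overlap in 47.3% of the 5809 genes with a mean between 0.1 and 1 FPKM.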
